A study of Ovis aries with 36 samples.

Results

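The infraspinatus, one of the rotator cuff muscles of the shoulder, was compared before and after 16 weeks of tendon release in 3 female sheep that had not yet received any drug. The comparison rests on 6 of the 36 libraries of the study, chosen by their titles: 3 biopsies taken at tendon repair (TR) and 3 taken before release (PRE), 1 of each from animals 2907, 2908 and 2909 of the arm N6W. All animals were Swiss Alpine ewes, 2 years old, and the body weight given for the N6W arm was 48.4 ± 1.5 kg. The TR biopsies of N6W had 16 weeks of release and 0 weeks of nandrolone, and the PRE biopsies had neither. The other N6W libraries used here came from the operated muscle (END) and from the infraspinatus of the opposite shoulder (END-CC), both 6 weeks after repair and after 6 weeks of 150 mg nandrolone decanoate per week, an anabolic steroid in the form of a slowly released ester. CONTROL animals 2901, 2902 and 2903 went through the same release and repair and received no nandrolone at any time. Animals 2913, 2914 and 2915 of N22W had received nandrolone for 16 weeks when their TR biopsies were taken. The design names 6 animals per arm, of which 3 per arm were analysed here.

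A muscle whose tendon is cut free from the bone loses its load and shortens. In rotator cuff tears such muscle is known to lose fibre mass and to gain fat and connective tissue, and these changes are known to revert only in part after the tendon is reattached. In RNA from a whole biopsy, fewer cells of a type and less RNA per cell cannot be told apart.

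The files identify each gene by an Ensembl identifier, and no name was found for any of the 25197 identifiers, so genes appear here under these identifiers, without roles or positions. For the same reason the tissue could not be checked against marker genes. Levels are normalized reads, that is, reads divided by 1 size factor per library, as judged from the steps between the deposited values. The 6 libraries held 11879809 to 31395665 reads, and 15433 to 17832 genes had a value above 0. The depth differed between animals and occasions: it was 17934426 reads at TR and 19975413 at PRE in animal 2907, 24464529 and 14434978 in 2908, and 31395665 and 11879809 in 2909. A set of 12 libraries, those taken at PRE and TR in CONTROL and N22W, stood apart from the other 24: in each of them 529 genes lay over 8-fold above every one of the 24, against 0 genes in the opposite direction. All N6W libraries lie among the 24, so the comparison of TR with PRE in N6W does not cross this divide, and 7 of the genes called in it belong to the 529.

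After 16 weeks of release 618 genes were higher and 528 lower than before it in the 3 N6W animals. These are 3.76% and 3.22% of the 16417 genes tested, together 6.98%, in limma at an adjusted p under 0.05. Genes that rose had a median log2 change of 1.01, and 310 of them rose at least 2-fold. Genes that fell had a median of −0.59, and 79 of them fell at least 2-fold. All 3 animals changed in the same direction in 598 of the risen and 525 of the fallen genes, against 6103 (37.2%) of all genes tested. The genes were called on the mean of these same changes, which favours a shared direction, so these counts are a description. The change was the largest in animal 2909 for 370 of the risen (59.9%) and 361 of the fallen genes (68.4%), against 48.2% of all genes tested. The median number of normalized reads per gene, which also depends on gene length, was 143 for risen genes, 368 for fallen genes and 85.2 for all genes tested. The share of rises among the calls depended on the scaling and the tool. It was 53.9% in limma on the values as deposited and 48.0% in limma after TMM scaling (593 rose, 643 fell). It was 42.5% in edgeR with TMM scaling (436 and 591) and 43.2% in DESeq2 (666 and 877). The opposite shoulder was not sampled at TR, so the release and the 16 weeks that passed cannot be told apart.

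The number of genes called was 1269 without animal 2907, 454 without animal 2908 and 161 without animal 2909, so it rested mostly on 2909 and 2908. Of the 1146 genes called with all 3 animals, 769 were called again without 2907, 411 without 2908 and 149 without 2909. The number was 397 without the animal as a block, 145 when the 12 N6W libraries were fitted alone, and 33 when the 6 libraries compared were.

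The 8 genes with the largest rises, taken among those higher at TR in all 3 animals and with a mean of at least 10 normalized reads, had log2 changes of 3.67 to 4.61. ENSOARG00000012921 had 362, 429 and 257 normalized reads at TR in animals 2907, 2908 and 2909, against 17.1, 19.6 and 6.46 at PRE (log2 change 4.61, SE 0.60, adjusted p = 0.000375). It was the most even of the 8, with single-animal changes of 4.33, 4.39 and 5.11. ENSOARG00000010985 was close to level across animals at TR, with 87.1, 84.3 and 82.3 normalized reads, against 8.09, 2.61 and 3.23 at PRE (log2 change 4.05, SE 0.57, adjusted p = 0.000529). ENSOARG00000011709 had 1012, 866 and 1791 normalized reads at TR, against 138, 65.2 and 59.8 at PRE (log2 change 3.82, SE 0.53, adjusted p = 0.000518). ENSOARG00000009344, with the most reads of the 8, had 1172, 1379 and 2282 normalized reads at TR, against 146, 97.8 and 102 at PRE (log2 change 3.76, SE 0.68, adjusted p = 0.00314). For each of the 8 genes the 3 TR values lay above the 3 PRE values without overlap, as a choice of large rises favours. TR and PRE values failed to overlap in 19.6% of all genes tested.

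Among the other 4 of these genes, ENSOARG00000014153 and ENSOARG00000011446 owed much of their mean change to some of the animals, and ENSOARG00000009525 was uneven too. ENSOARG00000014153 had 33.4, 259 and 384 normalized reads at TR, against 9.89, 9.13 and 4.85 at PRE, so the PRE libraries were alike and animal 2907 stayed low at TR (log2 change 4.13, SE 0.56, adjusted p = 0.000475). Its SE rests on a spread of the gene that all 36 libraries share. The change had an SD of 2.24 over the 3 N6W animals. In limma on the 6 libraries alone the gene did not pass (adjusted p = 0.0918). Of the 8 risen genes, ENSOARG00000009525 (adjusted p = 0.0536) and ENSOARG00000011446 (adjusted p = 0.177) did not pass in that fit either. ENSOARG00000011446 also missed the threshold in limma on the 12 N6W libraries (adjusted p = 0.114). ENSOARG00000000714 had 31.0, 232 and 217 at TR, against 0.899, 18.3 and 6.46 at PRE. Animal 2907 was the lowest at both occasions there, and its change of 4.08 lay between those of the other two. Its PRE value of 0.899 amounts to 1 read, so the size of that change also depends on the 1 added. ENSOARG00000011446 had 37.0, 35.2 and 108 at TR, against 7.19, 7.83 and 0 at PRE, a change largest in animal 2909 (6.77, against 2.21 and 2.04). With a PRE value of 0, the size of 6.77 depends on the 1 added before the log. The mean change of 3.67 became 4.05 with 0.5 added, and DESeq2 gave 3.03. Of the 8 risen genes ENSOARG00000011446 was the only one that did not pass when an animal was left out, here 2909. ENSOARG00000009525 had 33.4, 27.9 and 48.1 at TR, against 4.50, 0 and 0 at PRE (log2 change 4.37, SE 0.70, adjusted p = 0.00137). Its single-animal changes were 2.65, 4.85 and 5.62 (SD 1.54). Here too the values of 0 leave their size to the value added: the mean change was 5.06 with 0.5.

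**Figure D1:**
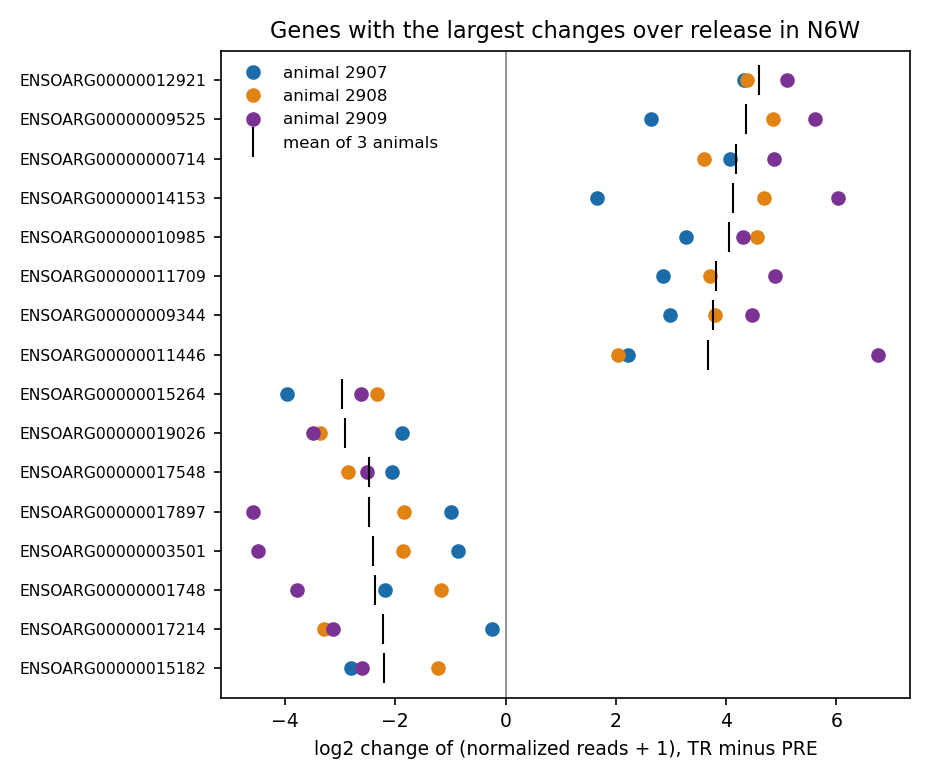
Log2 change of normalized reads plus 1, TR minus PRE, for the 8 genes with the largest rises and the 8 with the largest falls in N6W (rows); each dot is 1 animal and the black stroke is the mean of 3. The dot of animal 2909 lies farthest to the right in 7 of the 8 risen genes, and in ENSOARG00000017897 and ENSOARG00000003501 the dot of 2909 lies far to the left of the other two.

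The 8 largest falls had log2 changes of −2.98 to −2.21 and were lower at TR in all 3 animals. None of these 8 passed the test without animal 2909, and 7 of them did not pass when the 6 libraries were fitted alone. ENSOARG00000003501, with the most reads of the 8, had 7003, 7061 and 1235 normalized reads at TR, against 12670, 25600 and 27790 at PRE (log2 change −2.40, SE 0.53, adjusted p = 0.00955). Its level at TR was alike in 2907 and 2908 and several-fold lower in 2909, and its single-animal changes were −0.86, −1.86 and −4.49. The changes of ENSOARG00000017897 had the same order, with 369, 271 and 87.0 normalized reads at TR, against 729, 972 and 2119 at PRE (log2 change −2.47, SE 0.57, adjusted p = 0.0119). ENSOARG00000017214 was almost level in animal 2907, at 77.6 at TR and 92.6 at PRE, while 2908 had 74.1 and 738 and 2909 had 55.8 and 494. The 3 TR values of that gene lay close together, and the animals differed in where they had started. It did not pass without animal 2908 either.

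In ENSOARG00000015264 and ENSOARG00000015182 the change was largest in animal 2907. ENSOARG00000015264 had 2.39, 10.3 and 9.72 normalized reads at TR, against 52.1, 56.1 and 64.6 at PRE (log2 change −2.98, SE 0.63, adjusted p = 0.00707), with a change of −3.97 in 2907. ENSOARG00000019026 had 166, 15.4 and 25.1 at TR, against 615, 168 and 294 at PRE, so animal 2907 stood highest on both occasions. ENSOARG00000015182 had 4.78, 13.9 and 7.67 at TR, against 39.6, 33.9 and 51.7 at PRE. This gene did not pass with any one of the 3 animals left out. The other genes, ENSOARG00000017548 and ENSOARG00000001748, had log2 changes of −2.48 and −2.37.

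Among the genes called that held the most reads, 4 in each direction, changes were smaller. ENSOARG00000007894 had 38170, 56900 and 29890 normalized reads at TR, against 70460, 85860 and 89460 at PRE (log2 change −1.02, SE 0.23, adjusted p = 0.0101). ENSOARG00000008997 had 39960, 43880 and 16640 at TR, against 70450, 75680 and 71860 at PRE (log2 change −1.24, SE 0.27, adjusted p = 0.00911). The 3 PRE values of this gene lay close together and the TR value of 2909 was far below the other two. ENSOARG00000009602 and ENSOARG00000004399 fell too, with log2 changes of −1.01 and −0.51. ENSOARG00000011328 was the risen gene with the most reads, with 9177, 7061 and 12260 normalized reads at TR, against 5346, 4636 and 5448 at PRE (log2 change 0.85, SE 0.20, adjusted p = 0.0123). ENSOARG00000021147, ENSOARG00000016099 and ENSOARG00000000491 rose by 0.62, 0.78 and 0.44 on the log2 scale. In each of these 8 genes the change was largest in animal 2909, as it was in 48.2% of all genes tested. The margin was small in ENSOARG00000021147 (0.43, 0.68 and 0.73 in 2907, 2908 and 2909) and ENSOARG00000000491 (0.42, 0.37 and 0.53). None of the 8 genes passed the test without animal 2909, with the 12 N6W libraries alone or with the 6 alone. ENSOARG00000021147, ENSOARG00000000491 and ENSOARG00000004399 did not pass without 2908 either, nor did ENSOARG00000016099 and ENSOARG00000009602 without 2907.

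At the end of the experiment the opposite, unoperated shoulder of the same animals gave a further level for each gene. ENSOARG00000003501 had 2578, 10820 and 1427 normalized reads at END-CC, below each of the PRE values given above, and ENSOARG00000007894 had 40300, 36720 and 48870. In 7 of the 12 fallen genes named so far all 3 END-CC values lay below all 3 PRE values. This order held in 33.7% of all genes called as fallen in N6W and in 11.3% of all genes tested. Among the 12 risen genes all END-CC values lay above all PRE values in 3, against 27.3% of all genes called as risen and 11.6% of all genes tested. The same PRE values had served to choose these genes, which favours such an order, so the counts are a description. END-CC libraries were taken 22 weeks after the start and under nandrolone, and time, drug and the operation on the other side cannot be told apart in them.

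How unequal the 3 animals were could not be read from genes called in N6W, since the test favours genes on which the animals are alike. In their place stood the genes that CONTROL animals changed over release, 691 that rose (4.21% of those tested) and 1152 that fell (7.02%), together 11.2%. They were chosen in animals that share no library with N6W. The genes that rose in CONTROL had a median log2 change of 0.16 in N6W animal 2907, 0.50 in 2908 and 1.12 in 2909. They were higher at TR in 420, 554 and 674 of the 691 genes in these animals. The CONTROL genes that fell had medians of −0.12, −0.31 and −0.65, and were lower at TR in 775, 1034 and 1117 of the 1152 genes. Animal 2909 had the highest change in 80.3% of the risen genes, against 40.3% of all genes tested, and the lowest in 80.8% of the fallen genes, against 32.1%. The full order 2909, then 2908, then 2907 held in 60.1% of the risen and 58.2% of the fallen genes, against 25.6% and 19.0% of all genes tested. Of the 691 genes 193 (27.9%) passed the test in N6W as risen, and of the 1152 genes 281 (24.4%) passed as fallen, against 3.76% and 3.22% of all genes. The same genes make up 31.2% of the risen and 53.2% of the fallen genes of N6W. Both contrasts draw the spread of each gene from the same fit.

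**Figure D2:**
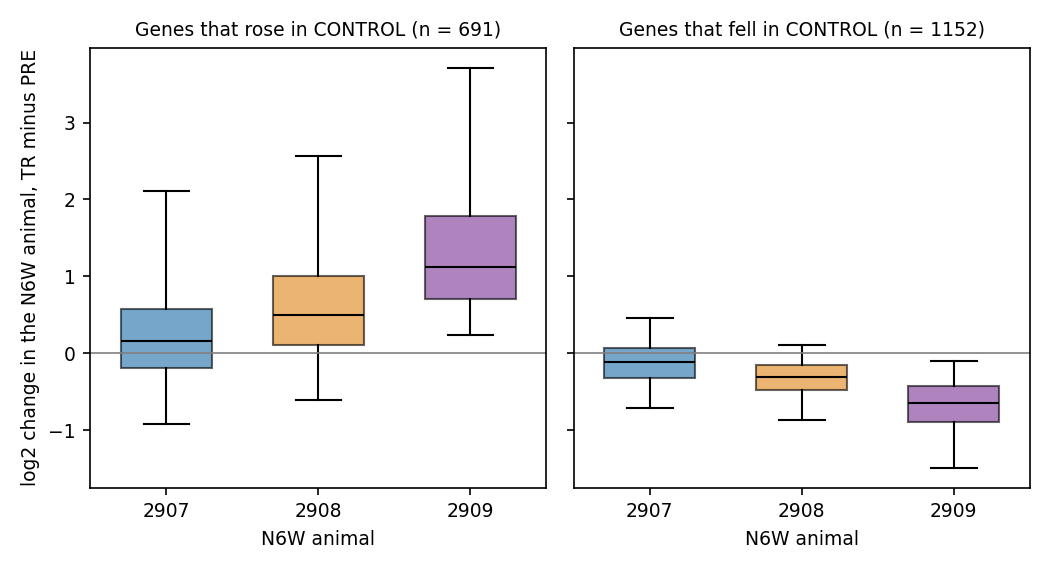
Log2 change, TR minus PRE, in each N6W animal for the 691 genes that rose and the 1152 that fell over release in CONTROL; boxes span the quartiles with the median, and whiskers reach the 5th and 95th percentiles. Medians step up through 0.16, 0.50 and 1.12 in the left panel and down through −0.12, −0.31 and −0.65 in the right panel for animals 2907, 2908 and 2909.

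The release score of an animal, the mean log2 change of the 691 risen CONTROL genes minus that of the 1152 fallen ones, was 0.40 in animal 2907, 1.00 in 2908 and 2.12 in 2909, with a mean of 1.17 ± 0.87 (SD, n = 3). The ratio of read depth at TR to that at PRE had the same order, 0.898, 1.69 and 2.64, and the part of depth in the scores was not tested. Within genes of a mean level of 1000 normalized reads or more the scores were 0.37, 0.88 and 1.90. Between 100 and 1000 they were 0.38, 0.90 and 1.87, and between 10 and 100 they were 0.49, 1.20 and 2.32. The order of the animals was the same in all of these classes and in the 70 risen and 9 fallen genes below 10, at 0.94, 1.39 and 2.27. The 9 fallen genes on their own did not have this order, with mean changes of −0.617, −0.587 and −0.615. With 500 CONTROL genes in each direction taken from the CONTROL libraries alone, the scores were 0.42, 1.28 and 2.78.

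**Figure D3:**
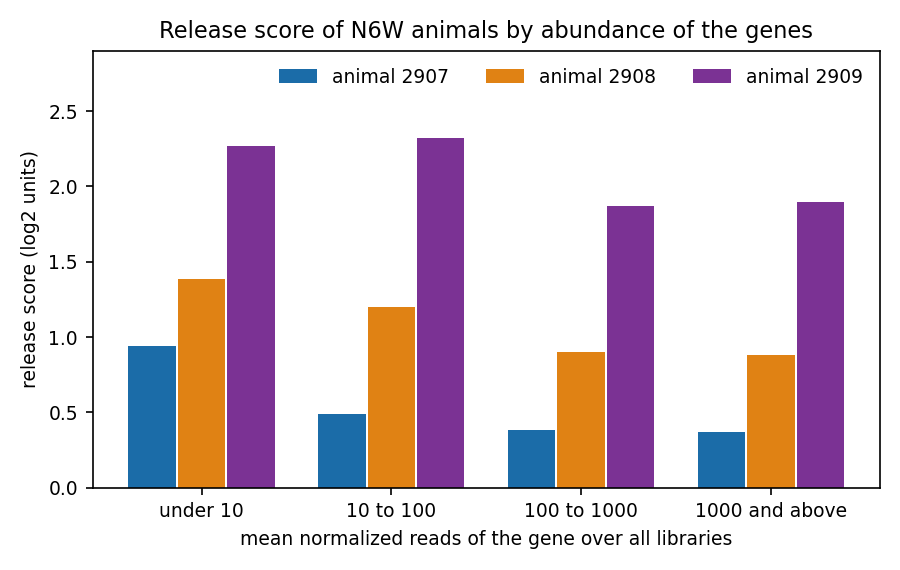
Release score in log2 units of the 3 N6W animals for genes of 4 classes of mean level over all libraries. Bars rise from animal 2907 to 2908 and 2909 in every class, with 0.37, 0.88 and 1.90 in the class of 1000 normalized reads and more.

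The animals differed at TR more than at PRE. The release level of a library was taken as the mean log2 level of the 691 risen CONTROL genes minus that of the 1152 fallen ones, and it is below 0 because the fallen genes hold more reads per gene. It was −2.65, −2.27 and −1.29 at TR in animals 2907, 2908 and 2909, against −3.05, −3.27 and −3.41 at PRE. The SD over the animals was 0.70 at TR and 0.18 at PRE. A wider spread at TR was not limited to N6W: the SD was 0.44 at TR and 0.09 at PRE in N22W. In CONTROL, where the genes were chosen, it was 0.23 and 0.17. At END, 6 weeks after repair, the levels in N6W were −2.48, −2.95 and −1.34 (SD 0.83), and at END-CC they were −3.40, −3.32 and −3.33 (SD 0.04). Animal 2909 was therefore highest in the operated muscle on both later occasions and near the others in the opposite shoulder. Animals 2907 and 2908 changed places between TR and END. With the END-CC library of the same animal as the baseline for TR in place of PRE, the scores were 0.75, 1.05 and 2.05.

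**Figure D4:**
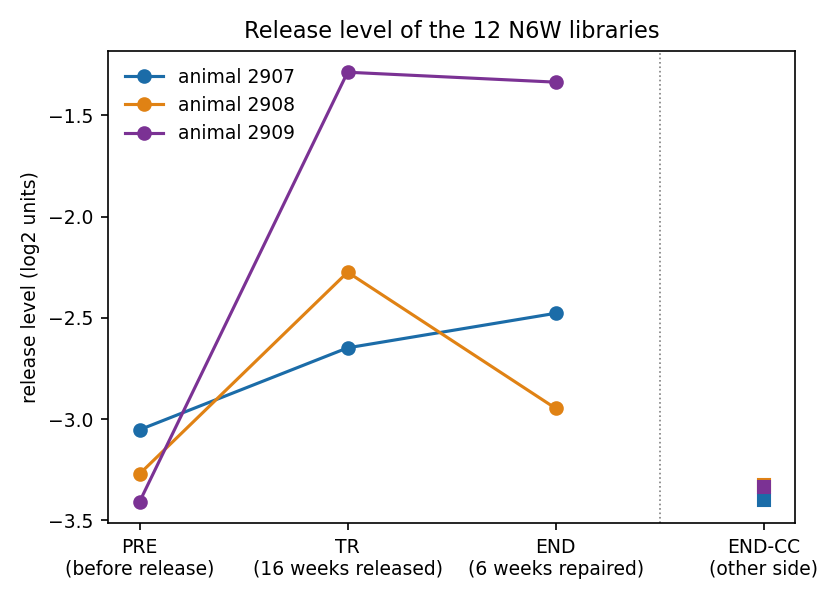
Release level in log2 units of the 12 N6W libraries by occasion, with 1 line per animal over the operated muscle and squares for the opposite shoulder. The levels lie between −3.41 and −3.05 before release, spread to between −2.65 and −1.29 at TR, and lie between −3.40 and −3.32 in the opposite shoulder.

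Single genes gave the same picture of spread. Over the 8351 genes with a mean of at least 100 normalized reads, the median SD of the log2 level over the 3 N6W animals was 0.23 at TR and 0.18 at PRE. In CONTROL it was 0.17 on either occasion. The median SD of the change itself was 0.28 in N6W, 0.25 in N22W and 0.20 in CONTROL. All 3 animals changed in the same direction in 3616 of these genes (43.3%) in N6W and in 5011 (60.0%) in CONTROL.

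Counted animal by animal, the response was wider in 2909 than in the other N6W and the CONTROL animals. Among the same 8351 genes, 456 were at least 2-fold higher and 379 at least 2-fold lower at TR than at PRE in animal 2909. Animal 2907 had 252 and 102 such genes, and animal 2908 had 209 and 105. The CONTROL animals had 234 and 148 (2901), 213 and 189 (2902) and 226 and 157 (2903). Among these 8351 genes, animals 2907 and 2908 were near them in the number of genes higher at TR and below each of them in the number lower. The N22W animals, under nandrolone during release, were uneven too, with 356 and 548 (2913), 113 and 78 (2914) and 264 and 404 (2915). The place of 2907 and 2908 depended on the cut. Among the 13189 genes with a mean of at least 10, animal 2907 had 537 higher and 488 lower, and 2908 had 748 and 345. The CONTROL animals had 690 and 350, 727 and 336, and 759 and 401 there. At that cut 2907 lay below each of them in genes higher and above each in genes lower. Animal 2909 was again the widest of these animals, with 1550 and 550. The changes of animal 2907 were the least like those of the rest. Across the 8351 genes, which are not independent replicates, they had a Pearson correlation of 0.26 with those of 2908 and of 0.26 with those of 2909, whereas 2908 and 2909 had one of 0.55. With the mean change of CONTROL the correlations were 0.16 for 2907, 0.49 for 2908 and 0.78 for 2909. Taken with each single CONTROL animal, the correlations were −0.01 to 0.29 for 2907, 0.35 to 0.53 for 2908 and 0.59 to 0.77 for 2909. Between pairs of CONTROL animals they were 0.58 to 0.73.

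**Figure D5:**
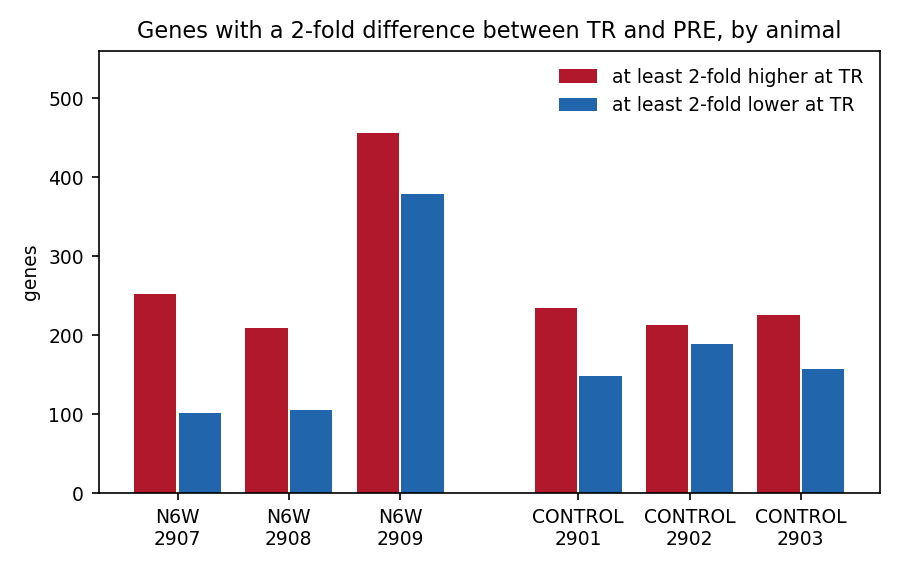
Number of genes, of 8351 with a mean of at least 100 normalized reads, that were at least 2-fold higher (red) or lower (blue) at TR than at PRE in each animal of N6W and CONTROL. Animal 2909 has 456 and 379 such genes, and the other 5 animals have 209 to 252 and 102 to 189.

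The genes with the most unequal response were taken from those called in CONTROL with a mean of at least 50 normalized reads in the 6 libraries, as the 6 with the largest SD of the change over the N6W animals. They were chosen for this spread, which is given as a description. ENSOARG00000018591 had 41.8, 31.5 and 162 normalized reads at TR, against 45.9, 26.1 and 4.85 at PRE. It was close to level in 2907 and 2908 and changed by 4.80 on the log2 scale in 2909, against changes of 5.78, 4.53 and 7.13 in the 3 CONTROL animals. ENSOARG00000012241 had 27.4, 59.4 and 139 at TR, against 44.0, 27.4 and 9.69 at PRE, so it was lower in 2907 and higher in the other two. ENSOARG00000001637 had 21.5, 36.7 and 152 at TR, against 20.7, 99.1 and 24.2 at PRE. It was level in 2907, lower in 2908 and higher in 2909, while each CONTROL animal changed by 3.56 or more.

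ENSOARG00000021001 passed the test in N6W (log2 change 2.23, SE 0.52, adjusted p = 0.0125), though with 142, 365 and 322 normalized reads at TR, against 125, 74.4 and 16.2 at PRE, it was almost level in 2907. It did not pass without 2908 or without 2909. ENSOARG00000002247 held the most reads in this group, with 13350, 3271 and 3098 at TR, against 4176, 6581 and 14850 at PRE. It was higher at TR in 2907 (1.68) and lower in 2908 (−1.01) and 2909 (−2.26). The sixth, ENSOARG00000014153, is described above. In all 6 genes the change of animal 2909 was the largest in size, and all 6 had in 2909 the direction seen in CONTROL.

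Whether release acted differently in N6W and in CONTROL, both free of drug by then, was tested gene by gene as the difference of their changes. Limma called 0 genes (0% of those tested), with 1224 genes at an unadjusted p under 0.05, while edgeR called 1 gene and DESeq2 12. The count was 58 without animal 2909, with 33 higher and 25 lower changes in N6W, and 1 without animal 2901. ENSOARG00000001637 had the largest difference among the genes named here, −4.85 (log2, SE 0.99, adjusted p = 0.18), with changes of 0.41 in N6W and 5.27 in CONTROL. ENSOARG00000018591 differed by −4.17 (SE 1.43, adjusted p = 0.472). A miss of the threshold does not show that the arms responded alike.

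For a comparison of the arms by score, genes called for release in the third arm, N22W, were used: 863 that rose and 1901 that fell, 5.26% and 11.6% of those tested and together 16.8%. On these genes the scores were 0.52, 0.72 and 1.87 in N6W and 1.50, 1.36 and 1.08 in CONTROL. N6W averaged 1.03 ± 0.73 and CONTROL 1.31 ± 0.22 (SD, n = 3 each), a difference of −0.28. A two-sided exact permutation test gave p = 0.5, and 3 against 3 animals cannot give less than 0.1. The CONTROL scores lay inside the range of the N6W scores, with animal 2909 above and the other two below every CONTROL animal. The N22W and CONTROL libraries lie on the same side of the divide between the libraries, and the part of this in the scores was not tested.

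The genes changed over release in N6W were then looked up in the END and END-CC libraries of the same animals. Those levels do not enter the change from PRE to TR, but they helped to set each gene's spread in the common fit, so the lookup is not independent of the choice. In the operated muscle against the opposite shoulder limma called 418 genes as higher (2.55% of those tested) and 259 as lower (1.58%), together 4.12%. Of the 618 genes that had risen over release 126 (20.4%) were called higher in the operated muscle and 0 lower. Of the 528 that had fallen 50 (9.47%) were called lower and 5 higher. The median difference between operated and opposite muscle was 0.37 for the risen genes, −0.27 for the fallen genes and 0.03 for all genes tested. Animals again differed: the score of the risen minus the fallen genes was 0.76 in 2907, 0.25 in 2908 and 1.52 in 2909 (mean 0.84 ± 0.64, SD, n = 3). Between operated and opposite muscle 2 genes were called without animal 2909, 318 without 2907 and 1213 without 2908. With the 12 N6W libraries fitted alone, or only the 6 compared, limma called 0 genes (2857 and 2409 at an unadjusted p under 0.05), against 582 in edgeR and 1235 in DESeq2 on all libraries, so every call named here rests on the fit across the arms.

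Of the 8 genes with the largest rises over release 7 were also called as higher in the operated muscle in the fit of all libraries. ENSOARG00000012921 had 528, 159 and 1104 normalized reads at END, against 85.3, 81.7 and 39.4 at END-CC (log2 difference 2.78, SE 0.60, adjusted p = 0.018). ENSOARG00000009344 had 1361, 762 and 5022 at END, against 215, 330 and 131 at END-CC (3.04, SE 0.68, adjusted p = 0.021). In both genes animal 2909 had the highest END and the lowest END-CC value, and animal 2908 the lowest END value. Among the 8 genes with the largest falls, only ENSOARG00000019026 was called lower in the operated muscle, with 259, 114 and 32.5 at END, against 1063, 225 and 436 at END-CC.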

How the data were processed

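Libraries were stranded and made from total RNA, and ribosomal RNA had been removed with human probes, per the labels' protocols. STAR 2.3.0e, R 3.0.2 and the assembly Oar_v3.1 are listed in the submitters' processing notes without roles. The sources used here do not say how reads were counted, with which annotation, or how they were scaled. Each deposited file gives 1 signal per gene. In all 36 libraries the values were multiples of 1 step per library (100% of those worth at most 100 steps, to a tolerance of 0.1 step), and values divided by that step were taken as reads. The spread in the tests is that between animals, with 1 estimate per gene shared by all arms. An SE therefore does not show the spread within N6W alone. Among the 8351 genes with a mean of at least 100, the median SD of the change was 0.28 in N6W and 0.20 in CONTROL.

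The deposited values were kept as scaled by the authors. Limma 3.58.1 (R 4.3.3) with a mean-dependent prior was fitted on log2(value + 1) for 16417 genes with a median of at least 0.5, over the 36 libraries, blocked by animal, with a mean per arm and occasion. Two-sided p values were adjusted over all genes tested (Benjamini-Hochberg), with a threshold of 0.05. This limma fit takes the place of the edgeR test intended for whole counts. A fold change on the log2(value + 1) scale understates the change of low genes. EdgeR 4.0.16 and DESeq2 1.42.0 were run on the recovered reads as alternatives. The fits were tested on simulated data. The animal numbers in the labels pair the libraries. Deviations from the group means at TR and PRE correlated at 0.08, 0.37 and 0.10 in animals 2907, 2908 and 2909, against −0.28 to 0.14 between different animals. Only 2908 lay above that range, so the pairing of 2907 and 2909 rests on the labels alone. No 2 libraries of an occasion were copies: the chi-square per gene between their reads was 15.2 to 89.5, where copies would lie near 1.

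Named genes were the 8 largest rises and falls alike in all 3 animals with a mean of at least 10, the 4 risen and 4 fallen genes with the most reads, the 6 most unequal genes called in CONTROL with a mean of at least 50, and any gene called between N6W and CONTROL, of which there were 0. The members, gene groups and rules were chosen with earlier results of these data known. Lists by gene name could not be used. Comparisons by score with N22W genes, with genes of a mean of at least 100 and with END-CC as the baseline were chosen after seeing the data.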

Additional observations from a re-analysis of the deposited data

How the results depend on the processing

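The count of genes changed over release in N6W was 145 with the 12 N6W libraries alone, 33 with only the 6 libraries compared and 397 with no replicate block, and 161 to 1269 with 1 animal left out. The other settings gave 873 to 1543. The difference from CONTROL gave 1 gene in edgeR and 12 in DESeq2, and 0 to 58 with 1 animal left out; the other settings gave 0. Operated against opposite muscle gave 0 genes with the 12 N6W libraries (2857 at an unadjusted p under 0.05) and 0 with only the 6 compared (2409), 116 with no replicate block, 413 with no filter, 1235 in DESeq2, and 2 to 1213 with 1 animal left out, against 582 in edgeR. Its score was 2.35 with the 33 genes called from the 6 libraries, and 0.46 to 1.35 with 1 animal left out. The release score stayed between 0.70 (without animal 2909) and 1.56 (without 2907). Smaller fits have fewer animals for the spread, and those of N6W alone use only the spread of N6W. Among the 8351 genes with a mean of at least 100, the median SD of the change was 0.28 in N6W and 0.20 in CONTROL. The cause of the shifts was not tested. Of 347 results of single named genes under other settings 75 lost the call, 1 gained it, and 2 turned without animal 2909: with 1 animal left out, ENSOARG00000001637 was between −0.68 and 1.33 and ENSOARG00000002247 between −1.63 and 0.33. Scaling by TMM moved the median change of all genes by at most 0.04 in size on the log2 scale.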

Other observations

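Large changes of a single animal were shared to different degrees by the others. Among the 13189 genes with a mean of at least 10 normalized reads, 488 were at least 2-fold lower at TR than at PRE in 2907. Their median log2 change was −0.17 in animal 2908 and 0.26 in 2909, and 56.4% of them were lower at TR in 2908 and 39.3% in 2909. The 537 genes at least 2-fold higher in 2907 had medians of 0.38 in 2908 and 0.65 in 2909, and 65.9% and 73.4% of them were higher at TR there. Of the 488 genes 19 were called as fallen and 21 as risen in CONTROL. Among all genes tested 7.02% were called as fallen and 4.21% as risen there. The 550 genes at least 2-fold lower in 2909 had median changes of −0.25 in 2907 and −0.45 in 2908, and 207 were called as fallen and 1 as risen in CONTROL. Over the 3 animals 117 genes were at least 2-fold higher at TR in all of them and 28 at least 2-fold lower in all, while 237 were at least 2-fold higher in 1 animal and at least 2-fold lower in another. At least 2-fold changes in 2909 alone concerned 1310 genes, against 473 in 2907 alone and 405 in 2908 alone. These genes were picked by their changes in single animals, so the values describe the 6 libraries.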
